A study of Mus musculus with 49 samples.

Results

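Collagens are the secreted and membrane-bound proteins of the extracellular matrix, and 42 of their genes were followed here through p53 activation and loss of the p53 cofactor Trim24 in mouse embryonic stem (mES) cells. They are the genes whose symbol is Col, a number, a and a number, without Col4a1 and Col4a2, and they make up 42 of the 20489 protein-coding genes measured by RNA-seq. Every library came from mES cells of strain 129S6/SvEvTac grown with serum and leukemia inhibitory factor on gelatin. Wild-type cells were compared without treatment (2 libraries) and with p53 activated by 1 µM doxorubicin for 4 h (2 libraries). The other cells carried a degron tag on both endogenous copies of Trim24, so that 500 nM dTAG13 degrades the protein, and they derive from selected knock-in clones, so that a difference between lines can be a difference between clones. In the time course these cells received doxorubicin for 2, 4, 8 or 12 h with Trim24 present or with dTAG13 added for the same hours, and 3 untreated libraries served as 0 h (3 libraries in each of these groups). In a separate experiment 3 untreated libraries were compared with 3 that received dTAG13 and no doxorubicin. Another set, called the RING experiment here, compared after 4 h of doxorubicin 4 libraries with Trim24 present, 4 with Trim24 degraded and 4 of a ligase-null line, in which cysteines of the Trim24 RING domain, the part that gives it ubiquitin ligase activity, were replaced. The labels give the ligase-null cells the degron-tagged genotype too. The treatment label of the 3 untreated libraries of the uninduced experiment reads activated p53 while their titles read untreated, and they were taken as uninduced. Libraries were labelled as biological replicates, and p-values measure only the spread between them.

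A collagen molecule is a triple helix of chains, which are hydroxylated and folded in the endoplasmic reticulum, secreted, trimmed by extracellular proteases and cross-linked. Fibrillar collagens build the cables of bone, skin and cartilage, fibril-associated collagens with interrupted triple helices (FACITs) coat those cables, type VI forms beaded filaments, type VII anchors epithelia, and type IV forms the sheet of basement membranes. Embryonic stem cells are epithelial-like cells that lay down basement membrane, while the fibrillar collagens are best known from connective tissue. p53 is a transcription factor stabilised by DNA damage, and Trim24 is a chromatin reader of the TIF1 family that also carries a RING domain.

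Reads over genes ranged from 14422098 to 35185256 per library, with a median of 19520026. Levels are given as CPM (counts scaled to library size), without the prior count that the deposited log2 values contain, and fold changes on the log2 scale are from the deposited values, where that prior makes changes of genes under about 1 CPM look smaller. Mdm2, a p53 target, rose from 181 to 966 CPM after 4 h in the time course (log2 fold change 2.41 ± 0.04, adjusted p = 2.6e-19, limma), and it was at 184 CPM in the untreated libraries with the mismatched label. Trim24 mRNA fell on activation from 211 to 120.5 CPM at 4 h. dTAG13 acts on the protein, so the transcript cannot check the degradation. Of 10 pluripotency markers, none had 0 reads at 0 h and their summed level was 5261 to 5335 CPM.

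Promoter sequence was examined for the 33 members with an entry in RefSeq's table of promoters (assembly GRCm38.p6), taking the 250 bases upstream of each start. The windows of 5 members are printed because their transcripts show the main patterns that follow. Col27a1 and Col23a1 rose with activation, Col7a1 rose and was lower without Trim24, Col9a1 was higher without Trim24, and Col13a1 fell. For Col9a1, which has 2 entries, the upstream one is shown. Each runs 5′ to 3′ on the strand of its gene, in lower case with every CG dinucleotide, the site of DNA methylation in mammals, in capitals. The windows lie at chr4:63215162-63215411 on the plus strand, chr11:51289670-51289919 (plus), chr9:108953336-108953585 (plus), chr1:24177360-24177609 (plus) and chr10:61979109-61979358 (minus). The window of Col27a1 is upstream of its RefSeq start but lies inside the gene as annotated by GENCODE (chr4:63214004-63334991).
Col27a1: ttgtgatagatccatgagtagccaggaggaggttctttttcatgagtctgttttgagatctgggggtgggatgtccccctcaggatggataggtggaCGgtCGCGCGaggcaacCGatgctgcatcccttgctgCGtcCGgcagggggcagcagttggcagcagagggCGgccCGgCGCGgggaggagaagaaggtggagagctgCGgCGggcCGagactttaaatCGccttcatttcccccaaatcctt
Col23a1: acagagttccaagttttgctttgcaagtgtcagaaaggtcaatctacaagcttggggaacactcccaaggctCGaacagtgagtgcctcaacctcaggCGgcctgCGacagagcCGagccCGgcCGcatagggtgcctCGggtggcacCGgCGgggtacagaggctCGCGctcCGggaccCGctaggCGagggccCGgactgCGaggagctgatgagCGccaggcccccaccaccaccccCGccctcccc
Col7a1: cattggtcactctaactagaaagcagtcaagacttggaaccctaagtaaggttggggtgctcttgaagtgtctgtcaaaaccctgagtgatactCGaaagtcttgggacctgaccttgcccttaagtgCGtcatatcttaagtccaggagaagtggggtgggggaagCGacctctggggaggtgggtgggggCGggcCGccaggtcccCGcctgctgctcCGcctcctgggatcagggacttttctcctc
Col9a1: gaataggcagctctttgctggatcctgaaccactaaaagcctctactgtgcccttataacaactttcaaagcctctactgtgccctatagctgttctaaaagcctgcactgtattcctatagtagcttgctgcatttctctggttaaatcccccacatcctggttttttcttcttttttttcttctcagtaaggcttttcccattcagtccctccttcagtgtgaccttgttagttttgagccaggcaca
Col13a1: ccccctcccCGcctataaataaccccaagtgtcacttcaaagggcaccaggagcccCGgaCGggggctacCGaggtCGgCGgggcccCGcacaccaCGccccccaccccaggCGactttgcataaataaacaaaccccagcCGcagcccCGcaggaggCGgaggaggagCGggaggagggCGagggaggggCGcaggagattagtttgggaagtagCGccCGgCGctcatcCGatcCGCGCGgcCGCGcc
The windows hold 15 CG in Col27a1, 18 in Col23a1, 7 in Col7a1, 0 in Col9a1 and 24 in Col13a1. Over the 36 entries of the 33 members the median was 8.5 CG, and over 19799 entries of 16188 genes in the tables it was 11. A window with no CG was found for 11.1% of the members' entries and 5.96% of all entries. The p53 response element decamer, searched on both strands, occurred in 3 of 36 entries (8.33%), those of Col20a1, Col6a6 and Col9a2, the last with 2 overlapping matches, against 6.21% of all entries. None of the 5 printed windows holds it, which says only that these letters are not in this window. The 3 windows with the decamer overlap annotated exons, of the same gene for Col6a6 and Col9a2 and of BX649560.1 for Col20a1.

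Before activation the collagen transcripts of mES cells were mostly those of Col18a1, which encodes the basement membrane collagen XVIII whose C-terminal fragment is endostatin. Over the 8 untreated libraries of the 3 experiments that hold any, Col18a1 was at 48.1 CPM per kb of exon. The next members were Col9a2, a chain of the cartilage FACIT type IX, at 4.03 CPM per kb and Col5a1, a chain of the type V collagen that nucleates fibrils, at 2.38 CPM per kb. Col13a1 was at 1.62, Col5a3 at 1.12, Col6a4 at 0.920, Col6a5 at 0.860 and Col9a3 at 0.849 CPM per kb. By the mean over those 8 libraries, 3 of the 42 members lay over 10 CPM, 22 under 1 CPM and 16 under 0.5 CPM, where a library holds few reads of the gene. The level of Col9a2 varied between experiments, at 18.6, 21.7 and 16.9 CPM in the 0 h libraries, 13.4 and 16.8 CPM in wild-type cells and 4.29, 3.79 and 4.38 CPM in the uninduced experiment. In the uninduced experiment Col9a2 was therefore below Col5a1 and Col13a1, with group means of 1.34, 2.48 and 1.70 CPM per kb. The tables were normalised separately and this difference was not tested.

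The summed level of the 42 genes was 513 ± 36.0 CPM at 0 h and 1186 ± 50.3 CPM after 12 h of activation with Trim24 present (SD, n = 3). Without Col18a1 it went from 119 to 794 CPM. Col18a1 itself was at 389, 424 and 368 CPM at 0 h and 359.7, 404 and 410.2 CPM at 12 h, with overlapping libraries, and its share of the sum went from 76.7% to 33%. With Trim24 degraded the sum at 12 h was 1164 ± 101 CPM.

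**Figure D1:**
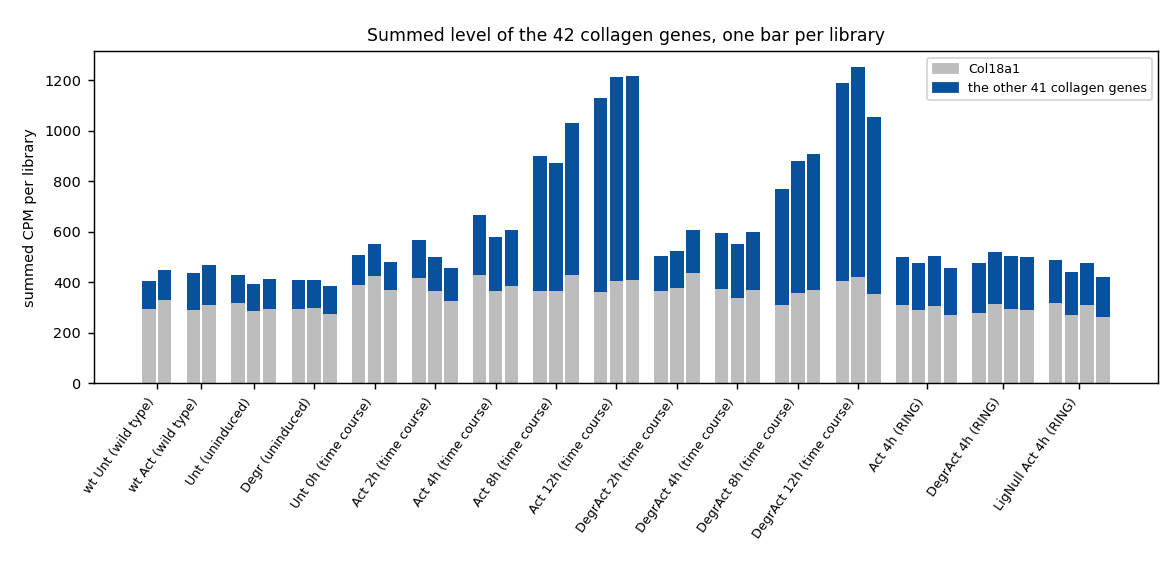
Summed CPM of the 42 collagen genes in each of the 49 libraries, with Col18a1 in grey and the other 41 genes in blue (labels as in the titles of the libraries, the experiment in parentheses). The grey part lies between 263 and 435 CPM in all libraries, while the blue part grows at 8 and 12 h of activation with and without Trim24.

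The first question was how these genes respond to p53 activation over time when Trim24 is present. At 2 h, 3 of 34 members tested were higher and 0 lower (all genes: 3.07% higher, 0.677% lower). At 4 h the counts were 17 of 35 higher and 0 lower (all genes: 12.9% and 5.8%), at 8 h 30 of 40 higher and 1 lower (27% and 18.3%), and at 12 h 30 of 42 higher and 2 lower (30.3% and 22.9%). Calls needed a limma adjusted p below 0.01 together with a change of 0.75 or more on the log2 scale. The median log2 fold change of the members was 0.13, 0.71, 1.39 and 1.48 at 2, 4, 8 and 12 h, and that of all genes tested was 0.00, −0.01, 0.02 and 0.04. All 4 comparisons use the same 0 h libraries. Of the 32 members called in this series, 3 were first called at 2 h, 14 at 4 h, 14 at 8 h (Col13a1 among them, lower) and 1, Col5a2, at 12 h (lower), and 10 were never called. A member that only its activated libraries carried past the filter was selected for being higher in them. Counts over the 31 members that the 0 h libraries alone carried past it are therefore also given. Of these, 21 were higher at 8 h and 21 at 12 h. The other 9 of the 30 called higher at each of these times passed through the activated libraries only. They were Col4a3, Col4a4, Col4a5, Col4a6, Col9a1, Col19a1, Col24a1, Col25a1 and Col28a1. The shares of all genes above come from the ordinary filter. No share for genes that the 0 h libraries alone carried past it is given, so the 21 of 31 has no matching background. When 3 members with at most 3 reads over all 0 h libraries (Col4a3, Col4a6 and Col19a1) were set against a floor of 3 reads over the group, the median at 12 h was 1.82 instead of 1.48. Quantile normalization moved the median of all genes at 12 h by −0.15 and median centring by −0.22 on the log2 scale, and with quantile normalization the calls were 23 up and 5 down at 12 h, 19 up and 4 down at 8 h, 13 up at 4 h and 2 up at 2 h. The median of the members was then 0.02, 0.41, 0.71 and 0.88 at the 4 times. Shares of all genes called with quantile normalization are not given, so these counts have no matching background. Members called lower only with quantile normalization were Col11a1 and Col8a2 at 8 and 12 h, Col5a2 at 8 h and Col17a1 at 12 h. With no filter limma called 0 members at 2 h, and the 2 h call of Col1a1 held in 8 of 16 other settings, of Col2a1 in 14 and of Col11a2 in 15. The 4 h call of Col1a2 held in 5 of 16 other settings, of Col6a1 in 5 of 15 and of Col10a1 in 9 of 15. The remaining 4 h calls held in at least 15 of 16.

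**Figure D2:**
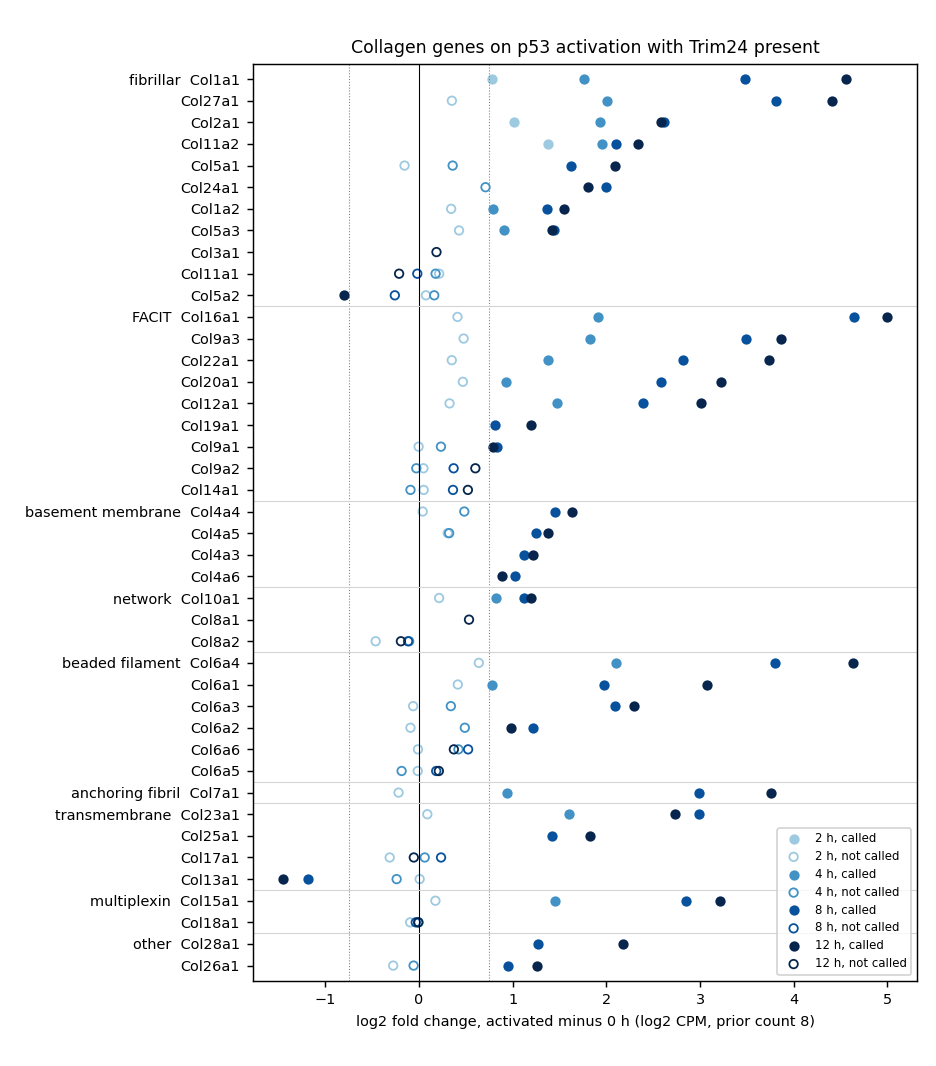
Log2 fold change of each collagen gene after 2, 4, 8 and 12 h of activation against 0 h with Trim24 present, grouped by class, with filled points for called genes and dotted lines at the minimum fold change of 0.75. Most points lie to the right of 0 and move further right with time, with Col16a1 at 5.0 at 12 h, while Col13a1 and Col5a2 lie to the left.

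Other transcripts moved over the same hours, and at 12 h 30.3% of all genes tested were higher and 22.9% lower. Of the 10 pluripotency markers 9 were lower at 12 h, and their sum fell from 5261–5335 to 1109–1213 CPM. In bulk libraries fewer cells of a type and less RNA per cell cannot be told apart. Of 10 fibroblast or feeder markers, which would point to connective tissue cells, Twist2 and Tnc were called higher at 12 h among 6 tested, and the sum went from 26.3–27.1 to 33.7–36.9 CPM, with 3 of the 10 at 0 reads at 0 h and 0 of them at 12 h. Mesoderm markers moved both ways (Mesp1 and T higher, Kdr and Eomes lower of 6), as did neuroectoderm markers (Neurod1 and Sox1 higher, Pax6 and Tubb3 lower of 5 tested), and 5 of 11 primitive endoderm markers were lower. The 1137 olfactory receptor genes, which these cells are not known to use and which served as a background level, rose in sum from 77.1 CPM at 0 h to 162 CPM at 8 h and 188 CPM at 12 h, a ratio of 2.44. Of the 30 collagen genes called higher at 12 h, 27 rose by more than that ratio. No ratio was taken for the other 3, Col4a3, Col4a6 and Col19a1, which had at most 3 reads over the 0 h libraries. However, 20 of the 30 started under 1 CPM and 11 were still under 2 CPM at 12 h. The part of these changes in the collagen results was not tested.

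Among the 11 fibrillar collagen genes 8 were higher and 1 lower at 12 h. Col1a1 (chr11:94936224-94953042, GRCm38), which encodes the main chain of type I collagen of bone and skin, was at 0.798, 0.785 and 0.817 CPM at 0 h, 4.83, 2.99 and 3.14 CPM at 4 h and 21.8, 32.9 and 27.3 CPM at 12 h. No activated library from 2 h on overlapped the 0 h libraries, and the log2 fold change was 0.78 ± 0.18 at 2 h and 4.56 ± 0.15 at 12 h (adjusted p = 7.39e-15, limma), a ratio of 34.2 between mean CPM. Its partner chain Col1a2 was at 0.897, 0.294 and 0.292 CPM at 0 h and 2.07, 2.05 and 1.91 CPM at 12 h. The groups did not overlap, and the difference was 1.55 ± 0.23 on the log2 scale.

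Col27a1 (chr4:63214004-63334991), a fibrillar collagen of growing cartilage, had a level of 1.79, 3.58 and 2.86 CPM at 0 h, 12.0, 11 and 12.4 CPM at 4 h and 59.1, 68.8 and 62.7 CPM at 12 h. All 12 h libraries lay above all 0 h libraries, and the log2 fold change was 4.4 ± 0.19 (ratio of mean CPM 23.1). The cartilage collagen Col2a1 was at 6.33, 6.77 and 4.20 CPM at 0 h, 12.0, 12.1 and 11.3 CPM at 2 h and 34.9, 37.6 and 34.4 CPM at 12 h, and was already called at 2 h (1.01 ± 0.14 on the log2 scale). Col11a2, a chain of the type XI collagen that forms the core of cartilage fibrils, was at 0.399, 0.687 and 0.584 CPM at 0 h, 2.38, 1.81 and 1.82 CPM at 2 h and 4.10, 4.73 and 3.87 CPM at 12 h, with no overlap at either time. It had the largest fold change of any member at 2 h, 1.37 ± 0.19 on the log2 scale. Its partner Col11a1 was not called at any time, with 2.21 to 3.71 CPM over the 15 libraries with Trim24 present. With quantile normalization Col11a1 was called lower at 8 and 12 h.

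The chains of type V collagen went in both directions. Col5a1 was at 20.8, 24.8 and 21.3 CPM at 0 h, 29.0, 27.5 and 29.5 CPM at 4 h and 88.8, 99.5 and 101 CPM at 12 h, and was first called at 8 h, reaching 2.10 ± 0.08 on the log2 scale at 12 h. Col5a3 was at 8.08, 10.5 and 9.23 CPM at 0 h and 24.4, 25.3 and 25.9 CPM at 12 h (1.42 ± 0.10). Col5a2, which shares a chromosome 1 neighbourhood with Col3a1, was at 2.99, 3.14 and 2.69 CPM at 0 h and 1.54, 1.31 and 1.75 CPM at 12 h, all lower, with a log2 fold change of −0.80 ± 0.16 (adjusted p = 0.00019, limma). Col24a1, a fibrillar collagen of developing bone, went from 2, 2 and 1 reads at 0 h to 24, 12 and 40 reads at 12 h, which is 0.0997, 0.0981 and 0.0584 CPM and 1.16, 0.631 and 2.12 CPM. It was called from 8 h on, passing the filter through the activated libraries only. Col3a1, the skin and vessel collagen that is abundant in fibroblasts, stayed at 0 to 7 reads per library with Trim24 present and was tested at 12 h only, where it was not called (0.19 ± 0.22).

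The FACIT genes held the largest fold change among the 42 genes at 12 h. Of 9 measured, 7 were higher at 12 h. Col16a1 (chr4:130047840-130099283), a minor FACIT of skin and cartilage, was at 0.947, 1.03 and 0.525 CPM at 0 h, 4.59, 3.62 and 3.99 CPM at 4 h, 29.8, 26.2 and 31.0 CPM at 8 h and 38.3, 34.5 and 38.3 CPM at 12 h. Groups from 4 h on did not overlap 0 h, and the 12 h change was 5.0 ± 0.15 on the log2 scale (adjusted p = 4.44e-15, limma), a ratio of 44.4 between mean CPM. Col22a1, found at tissue junctions such as that of muscle and tendon, was at 3.64, 3.73 and 3.62 CPM at 0 h, 9.90, 10.5 and 9.87 CPM at 4 h and 51.5, 54.4 and 53.9 CPM at 12 h. Each group from 2 h on lay above the 0 h libraries without overlap, and the change was 3.74 ± 0.09 on the log2 scale at 12 h.

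The 3 chains of type IX collagen, which assemble with each other on cartilage fibrils, started at different levels and moved differently. Col9a3 was at 2.99, 2.89 and 2.57 CPM at 0 h, 12.9, 8.96 and 11.2 CPM at 4 h and 48.7, 41.3 and 47.5 CPM at 12 h (3.86 ± 0.10 on the log2 scale). Col9a2 was at 18.6, 21.7 and 16.9 CPM at 0 h and 29.7, 27.4 and 29.8 CPM at 12 h, which did not overlap, but the log2 fold change of 0.60 ± 0.09 (adjusted p = 1.03e-05, limma) was under the minimum of 0.75. Col9a1 was lowest, at 0.299, 0.0981 and 0.292 CPM at 0 h and 0.723, 0.526 and 0.689 CPM at 12 h (0.79 ± 0.20 on the log2 scale), and its 12 h call held in 12 of 16 other settings. The exons of Col9a3 overlap those of Tcfl5 on the opposite strand, and those of Col10a1 overlap Nt5dc1 likewise. Since the counting did not use strand, reads from the shared stretches could not be assigned by strand. How this bears on the counts was not tested.

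Col12a1, a FACIT of tendon and muscle that binds type I fibrils, was at 0.548, 0.540 and 0.584 CPM at 0 h and 6.80, 6.47 and 7.90 CPM at 12 h (3.01 ± 0.16 on the log2 scale). Col20a1 was at 0.598, 0.392 and 0.467 CPM at 0 h and 6.36, 8.52 and 7.74 CPM at 12 h (3.22 ± 0.17). Both were called from 4 h on, with no overlap between 0 and 12 h. Col19a1, a FACIT of basement membrane zones, had 0, 0 and 2 reads at 0 h and 16, 10 and 7 reads at 12 h, and was called from 8 h on, with no fold given because of the near-absence at 0 h. It too passed the filter through the activated libraries only, as did Col9a1. Col14a1, a FACIT of tendon and skin, was not called at any time and lay at 1.15 to 2.92 CPM over the 15 libraries with Trim24 present.

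Of the 6 type VI genes, 4 were higher at 12 h. Col6a4, Col6a5 and Col6a6 encode alternative chains of type VI and lie next to each other on chromosome 9. Col6a4 (chr9:105989454-106096783) was at 6.78, 8.29 and 7.47 CPM at 0 h, 33.2, 31.4 and 35.2 CPM at 4 h, 111, 97 and 120.4 CPM at 8 h and 189, 199 and 197 CPM at 12 h, the highest level of any member but Col18a1 at that time. The change of 4.64 ± 0.08 on the log2 scale (adjusted p = 2.8e-18, limma) was a ratio of 26.0. Its neighbour Col6a5 was at 6.13, 6.77 and 6.01 CPM at 0 h and 7.33, 7.62 and 7.10 CPM at 12 h, a log2 fold change of 0.21 ± 0.11 that was not called. Col6a6 was at 1.79, 1.67 and 1.75 CPM at 0 h and 2.27, 2.52 and 2.28 CPM at 12 h (0.37 ± 0.16, not called). Of the 3 adjacent genes, only Col6a4 was called at any time of activation, and the difference between the genes' responses was not tested.

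The chains of ordinary type VI collagen, which need each other to form a filament, were low at 0 h. Col6a1 was at 0.199, 0.491 and 0.175 CPM at 0 h and 5.21, 5.47 and 4.24 CPM at 12 h (3.07 ± 0.20 on the log2 scale). Col6a2 was at 0.648, 0.294 and 0.292 CPM at 0 h and 1.01, 1.26 and 1.11 CPM at 12 h (0.98 ± 0.20), and Col6a3 at 0.399, 0.343 and 0.467 CPM at 0 h and 3.28, 3.68 and 3.13 CPM at 12 h (2.29 ± 0.17). In all of them the 12 h libraries lay above the 0 h libraries. Col7a1 (chr9:108953586-108984875), the only component of the anchoring fibrils that fasten skin epithelium to the dermis, was at 7.53, 6.87 and 7.01 CPM at 0 h, 14.9, 13 and 14.1 CPM at 4 h, 57.0, 54.3 and 67.4 CPM at 8 h and 97.4, 102 and 102 CPM at 12 h. It was called from 4 h on and reached 3.75 ± 0.07 on the log2 scale (adjusted p = 2.01e-17, limma).

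**Figure D3:**
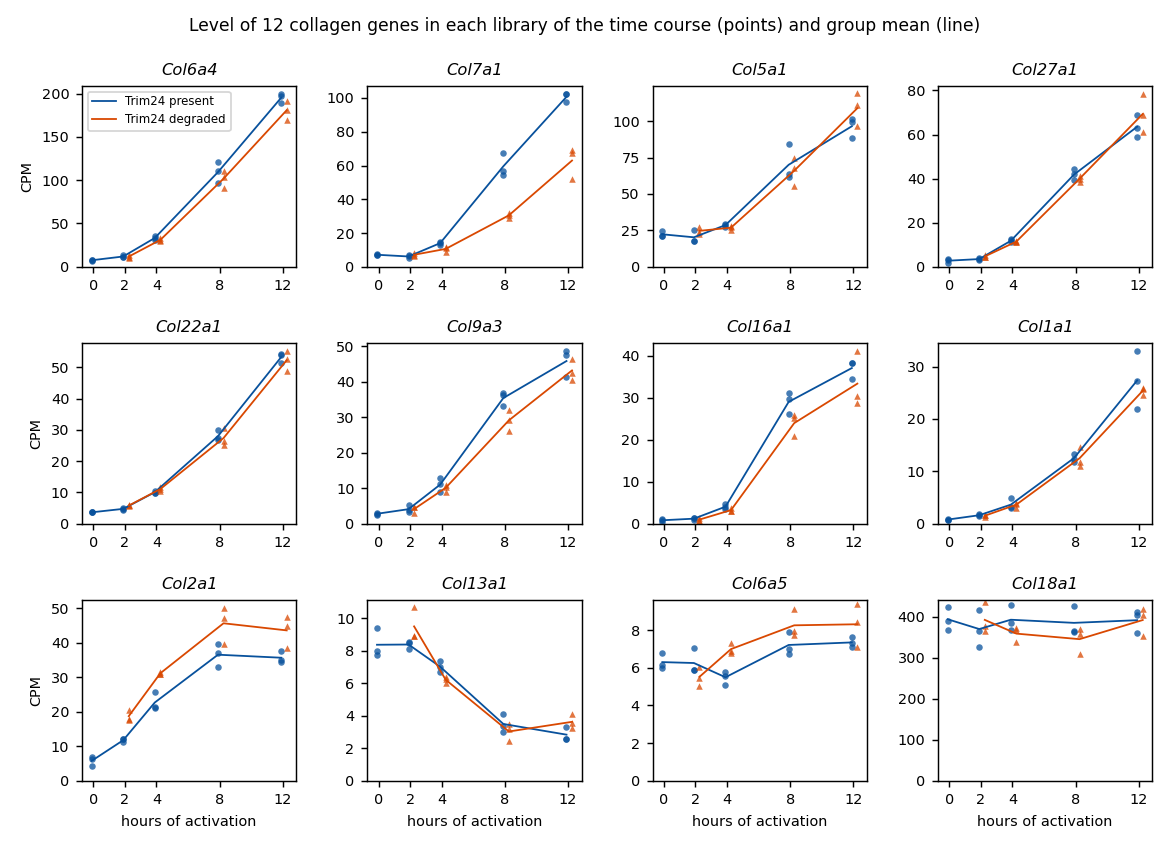
CPM of 12 collagen genes in each library against hours of activation, with Trim24 present (blue circles) or degraded (orange triangles, drawn slightly to the right) and lines through group means. Trim24-present and Trim24-degraded lines run together for Col6a4, Col27a1 and Col22a1, the degraded line is lower for Col7a1 at 8 and 12 h, Col13a1 declines, and Col6a5 and Col18a1 stay near their starting level.

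All 4 measured type IV genes outside the excluded pair, which encode the chains of specialised basement membranes such as that of the kidney glomerulus, were called higher at 8 and 12 h, from near-absence. All 4 passed the filter through the activated libraries only, and so were selected for being higher in them. Col4a3 had 0, 1 and 0 reads at 0 h and 12, 9 and 9 at 12 h, Col4a6 had 0, 1 and 0 at 0 h and 7, 9 and 4 at 12 h, and no fold is given for either. Col4a4, which lies head to head with Col4a3, went from 6, 0 and 4 to 21, 26 and 26 reads (1.63 ± 0.23 on the log2 scale). Col4a5 went from 3, 3 and 2 to 14, 22 and 19 reads (1.38 ± 0.20). In CPM, all 4 stayed under 1.4 at 12 h with Trim24 present. Of the network-forming genes, Col10a1 of hypertrophic cartilage was at 0.199, 0.294 and 0.234 CPM at 0 h and 0.820, 1.37 and 0.901 CPM at 12 h (1.19 ± 0.20), while Col8a1 and Col8a2, chains of the corneal basement layer, were not called, with 0 to 0.424 and 0.645 to 1.79 CPM. With quantile normalization Col8a2 was called lower at 8 and 12 h.

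The transmembrane collagens moved in opposite directions. Col23a1 (chr11:51289920-51583918) was at 1.30, 1.08 and 0.817 CPM at 0 h, 4.25, 4.20 and 3.37 CPM at 4 h, 10.7, 11.4 and 10.4 CPM at 8 h and 9.26, 8.62 and 9.22 CPM at 12 h (2.74 ± 0.15 on the log2 scale). Col13a1 (chr10:61838236-61979108), which acts at cell contacts such as the neuromuscular junction, was at 9.37, 7.70 and 8.00 CPM at 0 h, 7.34, 6.67 and 7.02 CPM at 4 h, 3.37, 3.02 and 4.09 CPM at 8 h and 3.33, 2.58 and 2.60 CPM at 12 h. The 8 and 12 h libraries all lay below the 0 h libraries, with log2 fold changes of −1.18 ± 0.14 and −1.45 ± 0.14 (adjusted p = 2.75e-08 at 12 h, limma). Col25a1, a neuronal collagen, went from 2, 3 and 1 reads at 0 h to 39, 20 and 19 reads at 12 h (1.83 ± 0.21), and passed the filter through the latter only. Col17a1, which belongs to the hemidesmosomes of epithelia, was not called at any time, at 3.42 to 6.13 CPM. With quantile normalization it was called lower at 12 h.

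Of the multiplexins, Col15a1, a collagen of muscle and vessel basement membranes, was at 0.598, 0.343 and 0.292 CPM at 0 h and 5.98, 6.73 and 7.42 CPM at 12 h (3.22 ± 0.18 on the log2 scale), and Col18a1 was not called at any time (−0.01 ± 0.07 at 12 h). The remaining members, Col26a1 and Col28a1, were also called higher from 8 h on. Col26a1 was at 1.79, 1.62 and 2.22 CPM at 0 h and 4.68, 5.26 and 4.93 CPM at 12 h (1.26 ± 0.15). Col28a1 went from 2, 1 and 1 reads to 32, 28 and 32 reads (2.18 ± 0.18), and passed the filter through the activated libraries only.

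The same question was asked in wild-type cells, whose Trim24 is untagged and whose libraries are separate from those of the time course. After 4 h, 9 of 39 members tested were higher and 0 lower (all genes: 7.99% higher, 2.27% lower), with a median log2 fold change of 0.41 against −0.02 for all genes. Col1a1 was at 0.527 and 0.629 CPM untreated and 2.52 and 3.20 CPM activated, 1.78 ± 0.20 on the log2 scale (adjusted p = 6.28e-17, limma). Col6a4 was at 7.56 and 8.30 CPM untreated and 19.7 and 19.8 CPM activated (1.28 ± 0.11). Col23a1 was at 0.774 and 0.749 CPM untreated and 2.27 and 1.94 CPM activated (1.14 ± 0.21). For these and the other 6 called members both activated libraries lay above both untreated ones.

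Col2a1 was at 6.07 and 6.12 CPM untreated and 11.9 and 12.7 CPM activated in wild-type cells (0.97 ± 0.12 on the log2 scale), and Col27a1 at 2.04 and 2.31 CPM untreated and 4.54 and 4.61 CPM activated (0.96 ± 0.16). Col9a3 was at 4.49 and 4.23 CPM untreated and 8.67 and 8.37 CPM activated (0.91 ± 0.13). The last 3 were lower in level: Col11a2 at 0.310 and 0.480 CPM untreated and 0.946 and 1.13 CPM activated (0.90 ± 0.23), Col16a1 at 1.18 and 1.08 CPM untreated and 1.64 and 2.92 CPM activated (0.78 ± 0.20), and Col1a2 at 0.774 and 0.540 CPM untreated and 1.23 and 1.54 CPM activated (0.78 ± 0.22). All 9 were also among the 17 called at 4 h in the degron line, that is 52.9% of the 17 and 100% of the 9, and for all genes the shared calls were 57.9% of the 2039 of the degron line and 89.7% of the 1315 of wild-type cells. Among the 35 members tested in both, 8 were called in the degron line only, and whether their response differs between the lines was not tested. Without replicate 1 of the activated wild-type libraries 3 members were called, and with quantile normalization 5. The calls of Col11a2, Col16a1 and Col1a2 each held in 7 of 14 other settings. In the degron line the 4 h call of Col1a2 held in 5 of 16. The summed olfactory receptor level had a mean of 112 CPM untreated (132.7 and 91.7) and 175 CPM activated (132.3 and 216.8), with overlap between the groups. All 9 exceeded the ratio of these means, 1.56, by their own ratio of mean CPM.

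**Figure D4:**
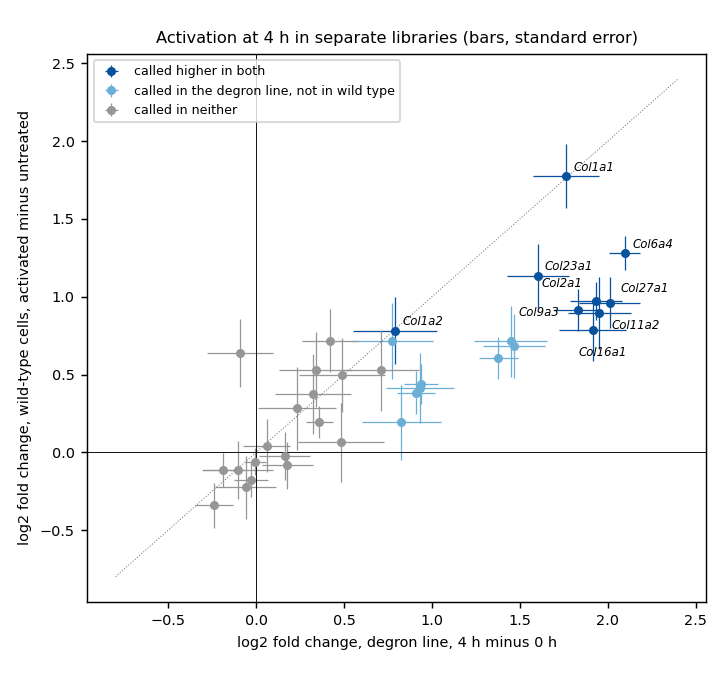
Log2 fold change after 4 h of activation in wild-type cells (vertical, activated minus untreated) against that in the degron line (horizontal, 4 h minus 0 h) for the 35 collagen genes tested in both, with bars of 1 standard error and a dotted line of equality. The 9 genes called in both, named in dark blue, lie to the upper right, and only Col1a1 and Col1a2 of them lie close to the line of equality.

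The next question was whether loss of Trim24 alters the collagen response at matched times of activation. Few members were called. At 2 h, 0 of 39 tested were called in limma (all genes: 0.325% higher, 0.0127% lower). Without adjustment, 6 lay above and 1 below at p under 0.05, for which no share of all genes is given, and limma-voom called 0. At 4 h, 1 of 41 was higher and 0 lower (1.0% and 0.149%), at 8 h 2 of 42 rose and 1 fell (1.14% and 0.448%), and at 12 h 2 of 41 rose and 0 fell (2.7% and 1.41%). One of the pair that rose at 8 h, Col3a1, passed the filter only through the libraries without Trim24, and so was selected for being higher in them. The median log2 fold change of members was 0.03, 0.13, 0.02 and 0.10 at the 4 times, beside 0.00, 0.00, −0.04 and −0.02 for all genes. In the RING experiment, whose libraries are separate, 2 of 40 were higher and 0 lower on loss at 4 h (1.01% and 0.135%). The comparisons of activation and of Trim24 loss share the libraries with Trim24 present. The difference between the effect of loss at 4 h and that at another time was called in limma for 0 of 42 members at 2 h (all genes: 0% higher, 0.0485% lower), 0 of 42 at 8 h (0.0903% and 0.0226%) and 0 of 42 at 12 h (2.22% and 1.28%). At an unadjusted p under 0.05 the counts were 6 and 4, 1 and 2, and 7 and 3 above and below, and limma-voom called 0 in each. The share of all genes at this unadjusted threshold is not given, so nothing is read from these counts.

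Col9a1 (chr1:24177610-24252684) was higher without Trim24 at 4, 8 and 12 h and in the RING experiment. At 4 h it was at 0.290, 0.402 and 0.285 CPM with Trim24 and 0.682, 1.27 and 0.896 CPM without (6, 7 and 5 against 13, 24 and 19 reads), at 8 h at 0.962, 0.660 and 0.454 CPM with and 2.28, 1.71 and 2.31 CPM without Trim24, and at 12 h at 0.723, 0.526 and 0.689 CPM with and 2.08, 1.71 and 1.93 CPM without Trim24. At each of these times all degraded libraries lay above all others, with log2 fold changes of 0.91 ± 0.22 (adjusted p = 0.00631, limma), 1.25 ± 0.21 (1.73e-07) and 1.17 ± 0.19 (3.75e-05). In the RING experiment it was at 0.155, 0.195, 0.520 and 0.175 CPM with Trim24 and 0.798, 0.755, 0.876 and 0.514 CPM without (0.85 ± 0.22, adjusted p = 0.00391, limma), where replicate 6 with Trim24 overlapped the degraded group. At 2 h it was at 0.111, 0.337 and 0.234 CPM with Trim24 and 0.222, 0.232 and 0.268 CPM without, and the difference between the effects at 2 and 4 h was −0.86 ± 0.29 (adjusted p = 0.259, limma). The 4 h call held in 7 of 16 other settings and was lost without replicate 1 or 3 of the libraries with Trim24 or replicate 2 or 3 of those without, while the 8 h and 12 h calls held in 16 and 17 of 17. At 4 h the olfactory receptor genes summed to 96.9 CPM where Trim24 was present and to 133 CPM where it was degraded, a ratio of 1.37, and in the RING experiment they summed to 125 and 91.8 CPM.

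Col7a1 was the only member called lower on Trim24 loss. At 8 h it was at 57.0, 54.3 and 67.4 CPM with Trim24 and 28.8, 32.0 and 30.6 CPM without, and all degraded libraries lay below, with a log2 fold change of −0.95 ± 0.09 (adjusted p = 7.38e-23, limma). At 12 h it was at 97.4, 102 and 102 CPM with and 67.3, 69.3 and 52.2 CPM without Trim24, without overlap, and the log2 fold change of −0.69 ± 0.09 (adjusted p = 1.19e-05) was short of the minimum of 0.75. At 4 h it was at 14.9, 13 and 14.1 CPM with and 11.9, 8.50 and 11.4 CPM without Trim24, and in the RING experiment at 9.15, 10.1, 9.20 and 9.36 CPM with and 8.58, 8.70, 9.02 and 8.73 CPM without Trim24. The effect at 8 h minus that at 4 h was −0.55 ± 0.13 with an adjusted p of 0.0223 in limma, which is not called. Mdm2 differed by −0.68 ± 0.06 at 12 h, and by −0.02 ± 0.04 at 4 h.

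Col12a1 was at 1.14, 1.07, 1.45 and 2.11 CPM with Trim24 and 2.62, 2.54, 2.67 and 2.82 CPM without in the RING experiment, with no overlap, and was called (0.78 ± 0.17 on the log2 scale, adjusted p = 0.000619, limma). In the time course at 4 h it was at 2.17, 2.07 and 2.28 CPM with and 3.57, 3.33 and 3.96 CPM without Trim24 (0.65 ± 0.15, not called for the size of the change), and at 8 h the log2 fold change was 0.59 ± 0.14. At 12 h it was at 6.80, 6.47 and 7.90 CPM with and 8.45, 7.53 and 7.33 CPM without Trim24, with overlap. The effect at 12 h minus that at 4 h was −0.51 ± 0.18 (adjusted p = 0.0391, limma), which is not called. The mean of Col2a1 was higher without Trim24 in each comparison with activation, but the change never reached the minimum. It was at 12.0, 12.1 and 11.3 CPM with Trim24 and 18.0, 17.6 and 20.6 CPM without at 2 h (0.65 ± 0.10), and at 15.9, 15.0, 15.8 and 16 CPM with and 23.1, 25.1, 26.1 and 26.0 CPM without Trim24 in the RING experiment (0.66 ± 0.07), both without overlap. At 4, 8 and 12 h the log2 fold change was 0.46, 0.32 and 0.28. Col23a1 had a log2 fold change of 0.61 ± 0.13 at 4 h and 0.66 ± 0.13 in the RING experiment, likewise under 0.75. At 8 and 12 h its libraries with and without Trim24 overlapped. The effect minus that at 4 h was −0.39 ± 0.17 at 8 h and −0.42 ± 0.17 at 12 h, neither called.

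Col6a6 was at 2.27, 2.52 and 2.28 CPM with Trim24 and 4.11, 3.97 and 4.68 CPM without at 12 h, with no overlap (0.76 ± 0.15 on the log2 scale, adjusted p = 0.000315, limma). Without replicate 1 of the 12 h libraries with Trim24, or without replicate 3 of those without Trim24, 1 member was called at 12 h. Of the 11 endoderm markers 5 were also higher without Trim24 at 12 h (all genes: 2.7% higher, 1.41% lower). Their sum was 1356 to 1380 CPM with and 2199 to 2456 CPM without Trim24, while Col4a1 was higher by 1.21 ± 0.08. The part of these cells or transcripts in the value of Col6a6 was not tested. Col3a1 was called higher at 8 h from 0, 1 and 0 reads with Trim24 and 5, 11 and 7 reads without (adjusted p = 0.00976, limma). No fold is given, and the call held in 6 of 16 other settings. In the RING experiment 0 members were called without replicate 4 or without replicate 5 of the libraries with Trim24, and 1 without replicate 4 or 6 of those with Trim24 degraded.

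**Figure D5:**
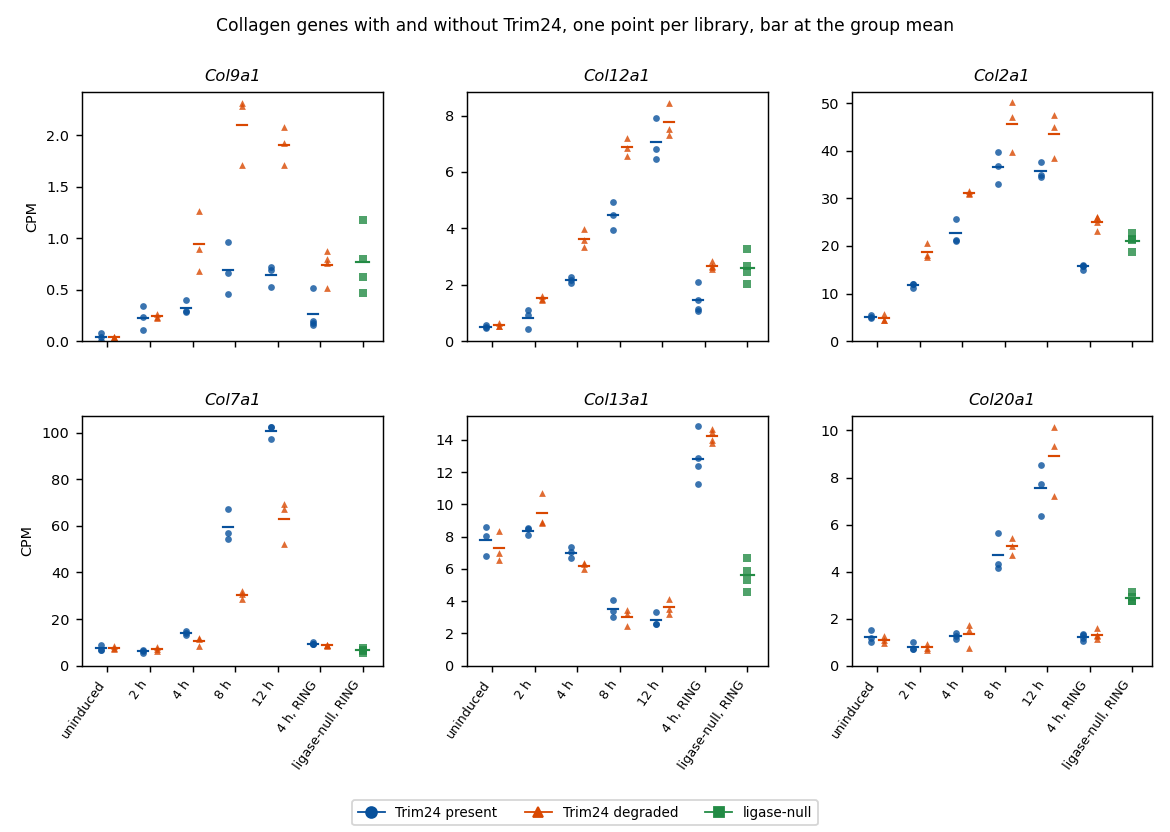
CPM of 6 collagen genes in each library of the uninduced experiment, the time course and the RING experiment, with Trim24 present (blue circles), degraded (orange triangles) or ligase-null (green squares) and a bar at each group mean. Orange lies above blue for Col9a1 from 4 h on and below blue for Col7a1 at 8 and 12 h, and green lies below both for Col13a1 and above both for Col20a1 in the RING experiment.

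In uninduced cells, Trim24 degradation changed 0 of 32 members tested in limma (all genes: 0.0781% higher, 0% lower). Without adjustment, 1 lay above and 2 below at p under 0.05, for which no share of all genes is given, and limma-voom called 0. Col9a1 had 0, 2 and 1 reads with Trim24 and 1, 1 and 1 reads without. Col7a1 was at 6.83, 6.77 and 9.04 CPM with Trim24 and 8.44, 7.15 and 7.41 CPM without. Col18a1 was at 317, 285 and 292 CPM with Trim24 and 295, 296 and 276 CPM without. In each of these the groups overlapped. The cells of this experiment differed from those of the time course in other respects, with the 11 endoderm markers at a sum of 8826 to 10185 CPM against 1394 to 1419 CPM at 0 h, and Col27a1 at 13.7, 12.1 and 14.9 CPM against 1.79, 3.58 and 2.86 CPM.

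The ligase-null line asks whether the RING activity of Trim24 bears on the response at 4 h. Against cells with Trim24, 3 of 42 members were higher and 1 lower (all genes: 4.67% higher, 2.28% lower), with a median log2 fold change of 0.13 beside −0.02 for all genes. Against cells with Trim24 degraded, 3 of 41 were higher and 1 lower (4.83% and 1.85%), with a median of 0.06 beside −0.05. In each comparison 1 of the 3 higher members, Col24a1 and Col4a3 respectively, passed the filter through the ligase-null libraries only. Both comparisons share the ligase-null libraries, and line and edit cannot be told apart. Col13a1 was at 5.87, 4.57, 6.65 and 5.33 CPM in ligase-null cells, 12.9, 12.4, 14.9 and 11.3 CPM with Trim24 and 14, 13.8, 14.5 and 14.7 CPM with Trim24 degraded. The ligase-null libraries lay below all others, by −1.15 ± 0.11 (adjusted p = 3.92e-10, limma) and −1.30 ± 0.10 (3.02e-12) on the log2 scale. Col20a1 was at 2.75, 3.12, 2.75 and 2.92 CPM in ligase-null cells, 1.19, 1.36, 1.04 and 1.29 CPM with Trim24 and 1.31, 1.11, 1.24 and 1.58 CPM with Trim24 degraded, above both groups by 1.04 ± 0.16 and 0.96 ± 0.15. These calls of Col13a1 and Col20a1 held in all 18 other settings.

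Col9a1 was at 0.466, 0.623, 0.800 and 1.18 CPM in ligase-null cells against 0.155, 0.195, 0.520 and 0.175 CPM with Trim24 (0.86 ± 0.24 on the log2 scale, adjusted p = 0.00531, limma), with overlap through 1 library of the latter. Against Trim24-degraded cells, at 0.798, 0.755, 0.876 and 0.514 CPM, it was not called (0.01 ± 0.20). Col24a1 was at 0.699, 1.19, 0.550 and 0.566 CPM in ligase-null cells and 0.413, 0.195, 0.104 and 0.351 CPM with Trim24 (0.83 ± 0.24). These low-level calls each held in 8 of 17 other settings. Against Trim24-degraded cells, Col4a3 was called at 0.280, 1.30, 0.700 and 0.566 CPM, or 6, 25, 14 and 12 reads, against 6, 0, 5 and 4 reads, and Col6a3 at 0.606, 1.35, 1.5 and 1.37 against 0.223, 0.675, 0.365 and 0.685 CPM (0.89 ± 0.22, with overlap). Without replicate 7 of the libraries with Trim24, 7 members were called against that group, and without its replicate 5, 2 were.

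The ligase-null libraries also stood apart in endoderm markers, of which 11 of 11 were higher against both groups (all genes: 4.67% and 4.83% higher). Their sum was 3000 to 3404 CPM in ligase-null cells, against 733 to 778 with Trim24 and 753 to 790 with Trim24 degraded. Col4a1 and Col4a2, which such cells secrete in quantity, were higher by 3.60 ± 0.06 and 3.87 ± 0.06 on the log2 scale against cells with Trim24. The sum of the 42 collagen genes was 457 ± 31.9 CPM in ligase-null cells, 484 ± 23.0 CPM with Trim24 and 499.8 ± 18.3 CPM with Trim24 degraded (SD, n = 4). Fibroblast markers summed to 16.6 to 18.5 CPM in ligase-null cells against 29.6 to 33.6 with Trim24. The list as a whole did not fall: of 8 tested, Tnc was called higher and Thy1 lower, and the median log2 fold change was 0.10. The summed olfactory receptor level was 200.1 CPM in ligase-null cells, 125 CPM with Trim24 and 91.8 CPM with Trim24 degraded. The part of these differences in the collagen values was not tested.

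Collagen chains need a set of enzymes, and 4 lists of such genes were followed beside the members. Of 23 genes of collagen folding and modification in the endoplasmic reticulum, 0 were called at 2 h of activation with Trim24 present and 3 rose at 4 h. At 8 h 6 rose and 4 fell, and at 12 h 7 rose and 4 fell. Of all genes tested, 3.07% rose and 0.677% fell by 2 h, and 12.9% and 5.8% by 4 h. By 8 h 27% rose and 18.3% fell, and by 12 h 30.3% and 22.9%. Plod2, a lysyl hydroxylase whose product is needed for cross-links, went from 102 to 479 mean CPM at 12 h (2.23 ± 0.07 on the log2 scale). P4ha1 and P4ha2, the catalytic subunits of prolyl 4-hydroxylase that stabilises the triple helix, differed by 1.31 ± 0.06 and 1.95 ± 0.06, P3h3 by 2.54 ± 0.10 and the prolyl isomerase Fkbp10 by 2.37 ± 0.06. P4ha3 and P3h2 were also higher, while Sec24d, which takes part in the export of collagen from the endoplasmic reticulum, was lower (−1.33 ± 0.08), as were Tmem38b, P3h4 and Mia2. Serpinh1, the collagen chaperone HSP47, was at 0.72 ± 0.06, under the minimum.

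Of 17 genes of extracellular processing and cross-linking, 15 were tested at 12 h, and 7 were higher and 2 lower (all genes: 30.3% and 22.9%). Bmp1, the protease that cuts the C-terminal propeptide of fibrillar collagens, was higher (2.31 ± 0.09 on the log2 scale, 9.77 to 49.9 mean CPM), and its enhancers Pcolce (−1.32 ± 0.06) and Pcolce2 (−1.41 ± 0.06) were lower. Adamts2, which cuts the N-terminal propeptide, was higher at 12 h by 4.90 ± 0.12. It was also higher on Trim24 loss in all 5 comparisons with activation and in uninduced cells. At 4 h of the time course it went from 5.63 to 42.4 mean CPM on loss (2.84 ± 0.09, adjusted p = 9.53e-18, limma), in the RING experiment from 5.85 to 38.0 (2.63 ± 0.08), and at 12 h from 37.9 to 66.5 (0.81 ± 0.08). In this list Adamts2 alone was called on loss at 2, 4 and 8 h, and Loxl2 joined it at 12 h. Lox itself, the lysyl oxidase that starts cross-linking, stayed at 0.803 mean CPM at 12 h, although called higher.

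Of 10 collagen receptors, 9 were tested at 12 h of activation, and 5 were higher and 2 lower (all genes: 30.3% and 22.9%). Ddr1, a receptor tyrosine kinase for collagen, went from 23.0 to 271 mean CPM (3.54 ± 0.07 on the log2 scale), and its relative Ddr2 fell from 32.6 to 9.0 (−1.82 ± 0.09). Itga2, a collagen-binding integrin chain, differed by 4.18 ± 0.19, Itga10 by 3.34 ± 0.16, and their common partner Itgb1 by −0.83 ± 0.06. On Trim24 loss Itga2 was lower at 12 h (13.1 to 6.10 mean CPM, −1.07 ± 0.12). The inhibitory receptor Lair1 was higher on loss at 2, 4, 8 and 12 h and in the RING experiment (1.19 ± 0.17 at 4 h, 1.30 to 3.40 mean CPM). Among 10 tested genes of collagen degradation and its inhibitors, Mmp2 (1.42 ± 0.08) and Mmp15 (3.70 ± 0.12) were higher and Mmp16 and Timp4 lower at 12 h, beside the same shares of all genes.

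In ligase-null cells against cells with Trim24, 4 of the 23 folding genes were higher and 0 lower (all genes: 4.67% and 2.28%). They were Serpinh1 (1.67 ± 0.07 on the log2 scale), P4ha1 (1.32 ± 0.06), P4ha2 (1.48 ± 0.07) and P3h2. These libraries are those with raised endoderm markers. On Trim24 loss 0 of the folding genes were called at 2, 4 and 8 h and in the RING experiment. Of all genes, 0.325%, 1%, 1.14% and 1.01% were higher there, and 0.0127%, 0.149%, 0.448% and 0.135% lower. P3h4 and P3h2 were higher on loss at 12 h (all genes: 2.7% higher, 1.41% lower).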

How the data were processed

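RNA-seq of total RNA (stranded library kit) was analysed in 49 libraries in 14 groups, in 4 tables normalised separately. Per the labels and methods, the authors demultiplexed with bcl2fastq (2.17 or 2.20), aligned reads to mm10 with STAR, placed multimapping reads at 1 site at random, counted protein-coding genes with featureCounts at default settings, which do not use strand, and applied TMM normalization in edgeR. The deposited values are log2 CPM with a prior count of 8. From them whole reads were recovered for 100% of values (tolerance 0.01). These reads give CPM and reads per library and a count-based alternative, limma-voom, which called 2, 16, 31 and 32 members at 2, 4, 8 and 12 h of activation, 0, 0, 3 and 2 on Trim24 loss at these times, 0 in uninduced cells, 10 in wild-type cells, 2 on loss in the RING experiment, and 4 and 5 in ligase-null cells against cells with Trim24 and with Trim24 degraded. Shares of all genes called by limma-voom are not given. Depth ranged from 14422098 to 35185256 reads.

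Each pair of groups was fitted within its table with limma 3.58.1 in R 4.3.3 (trend and robust), on genes that exceeded the floor of −1.48 by 0.5 in a number of libraries no smaller than the smaller group. P-values were adjusted by Benjamini-Hochberg over all genes tested, and a call needed an adjusted p below 0.01 with a change of 0.75 or more, up or down, on the log2 scale. The script was tested on simulated data. Members and gene lists were chosen with earlier results of these data known. Values per library are given for members called in at least 1 of 13 comparisons and for the 8 highest per length, the others by range. Gene positions and exon lengths came from GENCODE M21 (GRCm38), promoters from RefSeq. Replicate numbers were to be taken as pairing where the deviations of every same-numbered pair correlated over 0.1, which 0 of 11 comparisons met (in 2 every pair was above 0). No column of per-sample values was left unmapped. Alternatives covered normalization, filter, prior count, threshold, tool, replicate block and each replicate left out.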

Additional observations from a re-analysis of the deposited data

Results flagged for a closer look

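In each group of 4 libraries of the RING experiment, the named levels were searched for a library far from the rest by Dixon's criterion. Of 42 sets of values examined 6 stood out, and chance alone marks about 1 in 20. Col6a3 was at 0.606 CPM in ligase-null replicate 1, against 1.35 to 1.5 CPM in the others. Col9a1 was at 0.520 CPM in replicate 6 with Trim24, against 0.155 to 0.195 CPM. Col2a1 was at 15.0 CPM in replicate 5 with Trim24, against 15.85 to 15.97 CPM. Col4a3 was at 0 CPM in replicate 5 with Trim24 degraded, against 0.171 to 0.191 CPM, and Col6a6 was at 1.47 CPM in the same library, against 2.52 to 2.67 CPM. The summed olfactory receptor level was 190.9 CPM in replicate 7 with Trim24, against 97.3 to 113 CPM.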

How the results depend on the processing

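Counts below are collagen genes called. Shares of all genes are not given for these settings, so the counts have no matching background. At 2 h of activation there were 0 with no filter and 5 at a looser threshold (adjusted p under 0.05, no minimum change). On Trim24 loss at 2 h the looser threshold gave 1, and at 4 h 7, while limma-voom, no filter, no trend or robust fit, quantile normalization and a stricter filter each gave 0 at 4 h. At 8 h no trend gave 1 and the looser threshold 11, and at 12 h quantile normalization and median centring gave 1 and the looser threshold 7. In wild-type cells the looser threshold gave 18 and quantile normalization 5. For loss in the RING experiment no filter, median centring and a stricter filter gave 1, no trend 0 and the looser threshold 8. Against cells with Trim24, ligase-null cells gave 2 with no filter, no trend, quantile normalization, a stricter filter or without libraries of an olfactory sum over 200 CPM (chosen after seeing the data), and 19 at the looser threshold. Against Trim24-degraded cells, no trend and the olfactory exclusion gave 2 and the looser threshold 21. The differences of the Trim24 effect gave 1 (8 minus 4 h) and 3 (12 minus 4 h) at the looser threshold. The causes were not tested.

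With each replicate left out in turn, the count ranged from 2 to 3, 14 to 16, 29 to 31 and 31 to 32 for activation at 2, 4, 8 and 12 h, 0 to 0, 0 to 1, 2 to 3 and 1 to 3 for Trim24 loss at these times, 0 to 0 in uninduced cells, 3 to 9 in wild-type cells (3 without activated replicate 1), 0 to 3 for loss in the RING experiment, 2 to 7 for ligase-null cells against cells with Trim24 and 4 to 6 against Trim24-degraded cells. Libraries that moved a count by more than 1.5 times are named beside the result. With the replicate number as a block, activation gave 3, 16, 31 and 32, Trim24 loss 0, 1, 2 and 2, uninduced cells 0, wild-type cells 9 and the RING experiment 2. The ligase-null comparisons share fewer than 2 replicate numbers, so no block could be fitted there. Of 108 called gene values, 1038 of 1131 values in other settings and 585 of 650 with a replicate left out kept their call, and 0 reversed direction. Differences of effects were recomputed only with limma-voom, no filter, no trend or robust fit and the looser threshold. Low read numbers limit the 22 members under 1 CPM.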
